A study of Mus musculus with 2 samples.

Results

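Transcripts of the subunits of protein kinase A and of its inhibitor Pkia were measured in mouse skeletal muscle on 2 Affymetrix Mouse Genome 430 2 arrays. The 7 genes, of 18194 named by probe sets with 1 gene symbol, were the regulatory subunits Prkar1a, Prkar1b, Prkar2a and Prkar2b, the catalytic subunits Prkaca and Prkacb, and Pkia, chosen by name and with their values in these data already known. All 22 probe sets that the platform annotation gives to these symbols were read. One array carried total RNA from wild-type mice and the other RNA from mice null for Jhdm2a, a Jumonji-domain histone demethylase named Kdm3a in current annotation. Each array held RNA combined from 3 males aged 3 months, and both groups share the strain label, which names 129 ES cells and 4 generations of backcrossing onto C57BL/6. With 1 array per genotype there is no replicate, so no p-value was computed and every difference describes these 2 arrays, whose number limits the precision.

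Protein kinase A is held inactive when its regulatory subunits bind its catalytic subunits. Cyclic AMP, made by adenylyl cyclases downstream of receptors such as the beta-adrenergic ones, binds the regulatory subunits and frees the catalytic subunits to phosphorylate their targets. In muscle these include enzymes of glycogen breakdown and calcium channels, and in fat the lipases and lipid droplet proteins of lipolysis. Regulatory subunits of type II bind A-kinase anchoring proteins that place the enzyme in the cell. RIIα, from Prkar2a, is widely expressed, whereas RIIβ, from Prkar2b, is the form typical of fat and brain.

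The transcript of Kdm3a itself did not separate the labels. Its 1 probe set, 1426810_at, read 406 on the array labelled wild-type and 488 on the array labelled null, and no source used here says whether it falls inside the disrupted region. The arrays are therefore named by their labels, and every direction rests on them. Skeletal muscle markers were present on both arrays, with 20 of 20 measured and none as much as 1.5-fold apart, at log2 ratios from -0.09 to 0.26. Of all 9696 measured genes, 6.34% were at least 1.5-fold lower on the array labelled null and 3.38% higher. The actin gene Acta1, the creatine kinase gene Ckm and the myosin heavy chain gene Myh1 had log2 ratios of 0.25, 0.22 and 0.15. Values are MAS5 signals, and a probe set counted as measured when above a floor of 182 on both arrays. Signals of different probe sets are not on one scale, so levels were compared between arrays and not between genes.

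Among the regulatory and catalytic subunits, the type II genes Prkar2b and Prkar2a had the ratios farthest apart. The RefSeq sequence just before the start of each is shown to place these paralogs side by side, and the arrays do not measure promoters. The Prkar2b window lies at chr12:32061278-32061527 and the Prkar2a window at chr9:108691893-108692142 of GRCm38.p6, on the minus and plus strand. Each is the 250 bases before the start listed farthest upstream, of 2 listed starts for Prkar2b and 1 for Prkar2a, and capitals mark the GC box GGGCGG on either strand.
Prkar2b: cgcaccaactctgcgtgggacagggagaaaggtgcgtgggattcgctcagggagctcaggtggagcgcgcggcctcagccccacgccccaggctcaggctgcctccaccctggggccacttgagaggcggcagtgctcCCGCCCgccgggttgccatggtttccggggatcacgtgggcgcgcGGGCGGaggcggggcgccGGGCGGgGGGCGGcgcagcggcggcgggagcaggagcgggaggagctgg
Prkar2a: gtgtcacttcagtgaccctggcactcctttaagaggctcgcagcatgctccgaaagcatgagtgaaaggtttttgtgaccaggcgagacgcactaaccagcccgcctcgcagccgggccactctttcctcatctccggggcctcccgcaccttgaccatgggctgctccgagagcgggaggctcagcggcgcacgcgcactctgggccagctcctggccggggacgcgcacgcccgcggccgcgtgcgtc
The Prkar2b window held 4 GC boxes and the Prkar2a window 0, while the window of the other Prkar2b start held 0. Members with near-even ratios had such boxes too, up to 3 in a window of Prkacb or Prkar1a and up to 2 in one of Prkaca or Prkar1b. Of 32851 windows of this length in the table, 32.7% held at least 1 and 4.09% held 4 or more. The motif was chosen after the sequences had been seen, and it is a match of letters only. The cyclic AMP response element TGACGTCA was in neither window. It was in 1 of the 19 windows listed for the 6 members with an entry, 1 of those of Prkar1a, and in 1.55% of all windows.

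Prkar2b was the member with a large difference. It was 27.5-fold lower on the array labelled null, with a log2 ratio of -4.78 ± 0.41 (SD, 2 probe sets), the 4th lowest value of 9696 measured genes. That rank leaves out 90 lower genes that have only a bound, being not above the floor on the array labelled null. No other regulatory or catalytic subunit differed by 1.5-fold. The brightest probe set, 1456475_s_at, read 6502 on the array labelled wild-type and 194 on the array labelled null. The probe set 1438664_at read 4769 and 212, and 1430640_a_at read 1250 and 69.5. All 3 were high on the array labelled wild-type and at or near background on the other.

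The single probe sets of Prkar2b were 33.6-fold, 22.5-fold and 18.0-fold lower. The first 2 were designed from the same source sequence, so they share a target, and 1430640_a_at was designed from another. The signals left on the array labelled null were 1.06 and 1.16 times the floor, and that of 1430640_a_at was under it, which gives that probe set a bound of at least 6.86-fold lower. With the floor at the 75th percentile of signals, 467, Prkar2b as a whole was at least 13.9-fold lower. Probe sets of the same gene differed with an SD of 0.29 in log2 ratio over 3719 genes, and of 0.35 where the dimmer array was under 2 times the floor. Both are technical spreads that hold no variation between mice.

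**Figure D1:**
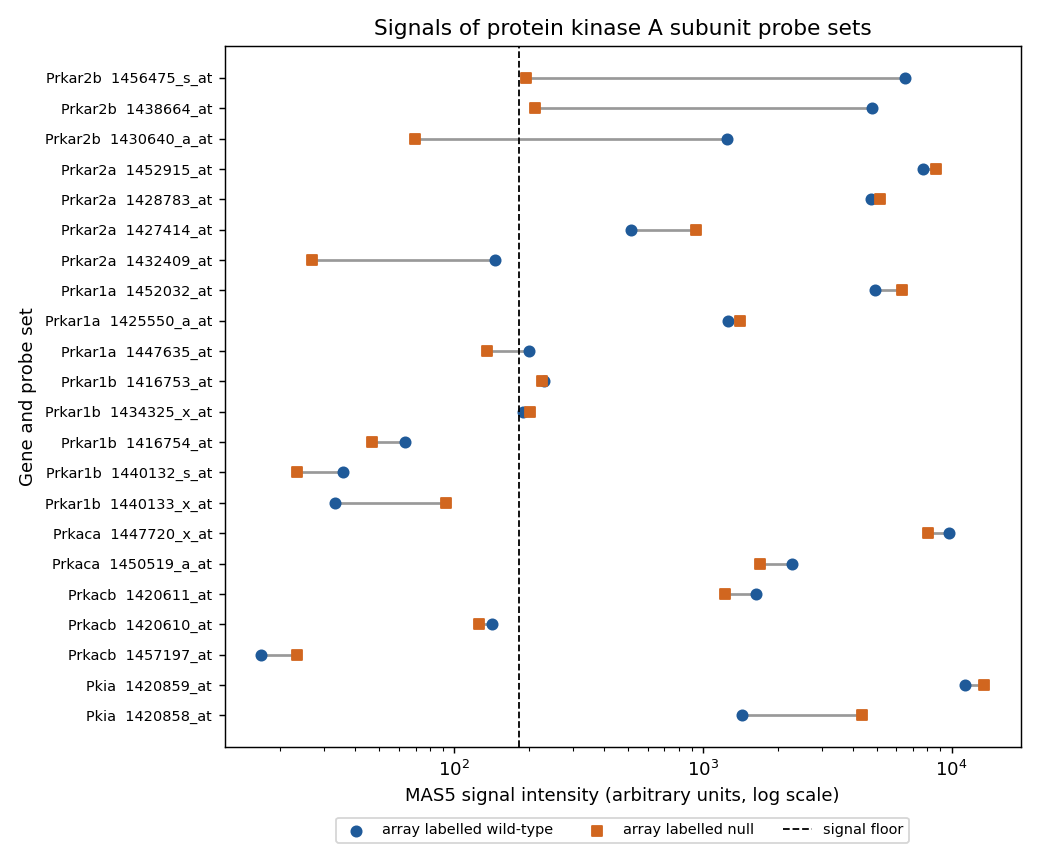
MAS5 signal on a log axis for the 22 probe sets of the 7 genes, with circles for the array labelled wild-type and squares for that labelled null and a dashed line at the floor of 182. The 3 Prkar2b probe sets drop to between 69.5 and 212, whereas the other probe sets above the floor on both arrays differ by at most 1.81-fold, apart from 1420858_at of Pkia.

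Of the 7 members, 1 was at least 1.5-fold lower, where 6.34% of the 9696 measured genes were, and 1 was at least 1.5-fold higher, where 3.38% were. Since the genes were chosen with these values known, the shares are given for reference only. Of the 22 probe sets, 14 were above the floor on both arrays, 2 on 1 array and 6 on neither. Among the 14, both measured Prkar2b probe sets were lower by 1.5-fold or more, against 6.73% of 15403 measured probe sets. 1 probe set each of Pkia and Prkar2a was higher, against 5.31%. Over all measured genes the median was 0.04 on the log2 scale (SD 0.46).

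The other regulatory subunits had log2 ratios between 0.04 and 0.38. Prkar2a, the closest relative of Prkar2b, had 0.38 ± 0.41 (SD, 3 probe sets). Its brightest probe set, 1452915_at, read 7677 on the array labelled wild-type and 8660 on the array labelled null, and 1428783_at, from the same source sequence, read 4763 and 5147. The dimmer 1427414_at read 516 and 934, a 1.81-fold difference that carries much of the mean. A probe set under the floor on both arrays, 1432409_at, went the other way, from 146 to 26.8. Prkar2a and Prkar2b were 5.16 log2 units apart in ratio, or 35.8-fold.

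Prkar1a encodes RIα, the regulatory subunit found in most cells. Its probe set 1452032_at read 4935 on the array labelled wild-type and 6299 on the array labelled null, and 1425550_a_at read 1264 and 1407. Both were slightly brighter on the array labelled null, and the gene's log2 ratio was 0.25 ± 0.14 (SD, 2 probe sets), smaller than the SD of 0.29 between probe sets of a gene. A dim probe set, 1447635_at, read 200 and 136. Prkar1b, which encodes the RIβ subunit best known from the nervous system, was barely above the floor. Its measured probe sets read 229 and 226 for 1416753_at, and 190 and 203 for 1434325_x_at, giving 0.04 ± 0.08 (SD, 2 probe sets). The other 3 probe sets of Prkar1b lay under the floor on both arrays, between 23.4 and 92.3.

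Both catalytic subunit genes were slightly lower on the array labelled null. Prkaca, which encodes the main catalytic subunit Cα, read 9789 and 8009 with 1447720_x_at and 2291 and 1698 with 1450519_a_at. The log2 ratio was -0.36 ± 0.10 (SD, 2 probe sets), 1.28-fold lower. Prkacb, which encodes Cβ, had 1 measured probe set, 1420611_at, at 1641 on the array labelled wild-type and 1231 on that labelled null. Its log2 ratio was -0.42, 1.33-fold lower, and 10.5% of measured genes had a lower value. Its probe sets 1420610_at and 1457197_at were under the floor, with signals of 142 and 126, and of 16.7 and 23.3. The catalytic subunits lay 4.42 and 4.36 log2 units above Prkar2b in ratio.

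Pkia, whose peptide binds free catalytic subunits and blocks them, was the member at the upper end, but its probe sets disagreed in size. The brighter, 1420859_at, read 11280 on the array labelled wild-type and 13544 on that labelled null, 1.20-fold higher. The dimmer, 1420858_at, read 1438 and 4372, 3.04-fold higher. Both have the same source sequence in the annotation, and the mean log2 ratio was 0.93 ± 0.95 (SD, 2 probe sets). A gap as wide as theirs, 1.34, was found in 1.32% of the 3719 genes with more than 1 measured probe set. From the brightest probe set alone Pkia had a log2 ratio of 0.26 and was no longer 1.5-fold higher.

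**Figure D2:**
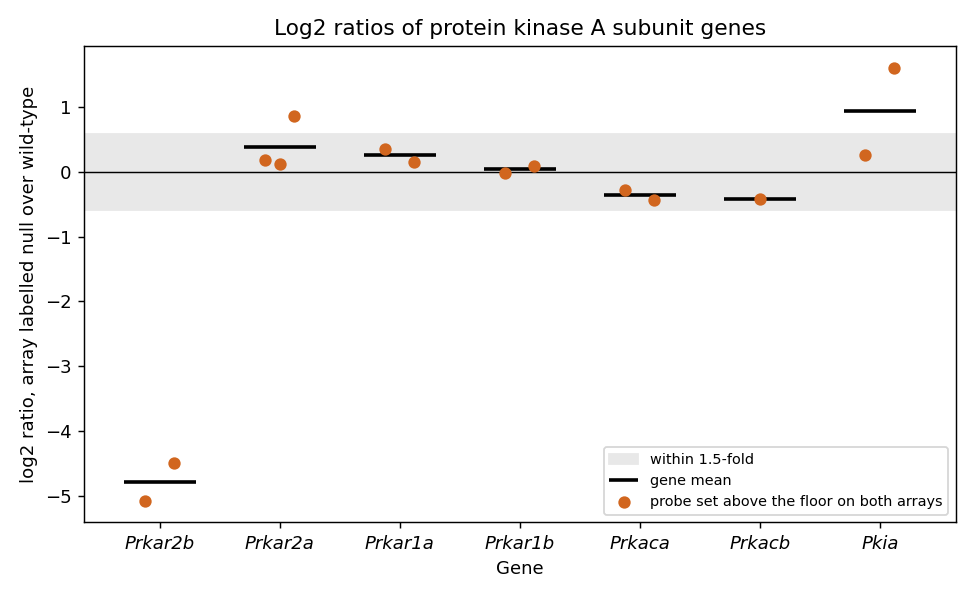
Log2 ratio of signal, array labelled null over that labelled wild-type, for the probe sets above the floor on both arrays (points) and their mean per gene (bars), with a grey band for differences within 1.5-fold. Prkar2b lies at -4.78, Pkia at 0.93 with its points far apart, and the other members between -0.42 and 0.38.

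Over the rest of the cyclic AMP pathway most genes had similar signals on both arrays, with a small number of low ones. In 10 lists of anchoring proteins, receptors, cyclases, phosphodiesterases, other effectors and targets, 89 of 127 genes beside the members were measured. Of these, 10 were at least 1.5-fold lower (11.2%, against 6.34% of all measured genes) and 2 were higher (2.25%, against 3.38%). The median log2 ratio was 0.10, against 0.04 for all genes. None of these genes reached the value of Prkar2b, the nearest being Pck1, which makes phosphoenolpyruvate from oxaloacetate and is induced by cyclic AMP in liver and fat, at -4.54.

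Of the genes for proteins that dock protein kinase A, 24 had a probe set and 15 were measured. Of the measured ones 0 were at least 1.5-fold lower and 0 higher, against 6.34% and 3.38% of all measured genes. All 15 measured A-kinase anchoring protein genes lay between -0.41 (Akap10) and 0.38 (Akap8), with a median of 0.05. Akap1, which anchors the kinase at mitochondria, had a log2 ratio of -0.37, and Akap2 -0.35. The other inhibitor gene measured, Pkig, had 0.45 ± 0.47 (SD, 2 probe sets), and the related kinase gene Prkx -0.16. Pkib was not above the floor, with signals of 22.2 and 15.0.

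Genes that make and remove cyclic AMP included 3 of the low ones. Among 7 adenylyl cyclases, Adcy3 had a log2 ratio of -1.46 ± 0.74 (SD, 2 probe sets) and Adcy6 -0.78. The brightest probe set of Adcy3 read 996 on the array labelled wild-type and 253 on that labelled null. Adcy9, the cyclase gene with 4 measured probe sets, had 0.07 ± 0.10. Among 11 phosphodiesterases only Pde3b, the insulin-responsive form of fat and liver, was past 1.5-fold. It read 3153 on the array labelled wild-type and 568 on that labelled null, 5.55-fold lower. Pde8a at -0.58, Pde4b at 0.50 and Pde4d at 0.45 were within 1.5-fold. Pde8a passed 1.5-fold with the median log2 ratio set to 0 and after loess. Pde4b passed it from its brightest probe set, 1.56-fold higher, and with the floor at the 75th percentile.

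Upstream of the cyclases, Gnas, which encodes the stimulatory G protein alpha subunit, had a log2 ratio of 0.07. In the same list of 6 measured genes Grk5, a kinase that desensitises receptors, had -1.12, ending at 194, near the floor. Gnb1, a G protein beta subunit gene, had -0.83 ± 0.51 (SD, 2 probe sets), but -0.47, within 1.5-fold, from its brightest probe set. The beta-adrenergic receptor genes were not analysed here. Among other cyclic AMP effectors, Popdc3, of a family of cyclic AMP binding membrane proteins found in muscle, was 1.51-fold higher, and Rapgef2, an exchange factor, had 0.57. Popdc3 was within 1.5-fold after loess or after setting the median log2 ratio to 0.

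Among targets and transcriptional effectors, the low genes were a minority, where 6.34% of all measured genes were at least 1.5-fold lower. Of the CREB factors, coactivators and salt-inducible kinases, 1 of 11 was past 1.5-fold. It was Sik2, a kinase abundant in fat that holds CREB coactivators out of the nucleus, at -1.36 ± 0.08 (SD, 2 probe sets), and Creb1 had 0.14 ± 0.33. Of 11 substrates in glycogen and fat breakdown, the hormone-sensitive lipase gene Lipe was 7.89-fold lower and Phka2, the liver form of a phosphorylase kinase subunit, 2.00-fold lower. The muscle form Phka1 had 0.15 ± 0.09 (SD, 3 probe sets) and Pygm, the muscle glycogen phosphorylase, 0.17. Of 9 measured substrates linked to calcium handling, Dmd, which encodes the membrane-linking protein dystrophin and not a calcium protein, had 1.44 ± 0.59 (SD, 2 probe sets) and the others were within 1.5-fold. Of 16 cyclic AMP responsive genes, Pck1 and the G protein regulator Rgs2 were lower, Rgs2 at -1.78 ± 0.17 (SD, 3 probe sets), and the gene means of the other 14 were within 1.5-fold. That of Dio2 rests on its dimmest probe set, and its brightest read 958 on the array labelled wild-type and 177, under the floor, on the other.

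The 8 measured genes nearest Prkar2b over the 2 arrays, by absolute difference in log2 ratio, were Pygl, Pck1, Elovl6, Apoc1, Cidea, Agpat2, Tkt and Cidec. Pygl, the liver glycogen phosphorylase, was nearest, with -4.81 and signals of 9402 and 335. Elovl6, a fatty acid elongase, had -4.44, and Cidea, a lipid droplet protein of brown fat, -5.21. Tkt had -4.12 ± 1.08 (SD, 2 probe sets), and its brightest probe set read 17931.6 on the array labelled wild-type and 1752.5 on that labelled null. Each of the others rests on 1 measured probe set. With 2 arrays a likeness of ratio is 1 number, and 615 of 9696 measured genes were at least 1.5-fold lower on the same array. The 8 genes held ranks from 2 to 10 counted from the lowest ratio. Being nearest Prkar2b, the 4th lowest, thus meant being among the lowest measured genes.

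Most markers of fat and liver were lower on the array labelled null, as Prkar2b was, and their part in its difference was not tested. In bulk RNA, fewer cells of a type and less RNA per cell cannot be told apart. Of 11 measured brown adipocyte markers 6 were at least 1.5-fold lower and 0 higher, with a median log2 ratio of -1.25, and 4 more were above the floor on the array labelled wild-type only. Over all measured genes 6.34% were at least 1.5-fold lower and 3.38% higher. The gene means of the other 5 markers were within 1.5-fold. These were Dio2, Cox7a1 at 0.03, Cox8b at -0.13, Zic1 at -0.34 and Prdm16 at -0.43. Ucp1, the uncoupling protein of brown fat, read 14885 and 283, and Cidea 13567 and 367. The deiodinase gene Dio2 had -0.34 from its dimmest probe set and was at least 5.26-fold lower by its brightest. The summed signal of the 32 probe sets of the list was 93006 on the array labelled wild-type and 40618 on that labelled null. Such a sum is weighted to bright probe sets. On the array labelled null the brightest were those of Cox8b and Cox7a1, at 18805 and 13825. On the array labelled wild-type these read 20562 and 13555. Bulk muscle RNA does not show which cells these 2 signals came from, so they cannot be read as brown fat that remained.

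Of 18 measured general adipocyte markers, 15 were at least 1.5-fold lower and 0 higher, with a median of -2.20. Lpl, Cd36 and Plin4 were within 1.5-fold, at -0.12, -0.31 and -0.53. All 21 with a probe set were above the floor on the array labelled wild-type and 18 on that labelled null. Adipoq, the hormone adiponectin, read 11443 and 1145, Retn, the hormone resistin, had -1.63 and Cidec -4.02. The summed signal of this list was 253071 and 125517. It too is weighted to bright probe sets, the highest signals of Car3 and Lpl being 26112 and 16439 on the array labelled null. On the array labelled wild-type these were 24357 and 15835. All 3 measured hepatocyte markers were at least 1.5-fold lower, with the albumin gene Alb at -2.87. Of the 17 hepatocyte markers with a probe set, 12 were above the floor on the array labelled wild-type and 3 on that labelled null. A bound on the lower side held for 7 of these and for 2 of the 21 general adipocyte markers. It held for 90 of all 18194 genes with a probe set. The apolipoprotein gene Apoa1 was at least 6.12-fold lower, and Apoa2 at least 6.95-fold. The summed signal was 33075 and 4268. Lipe, Agpat2, Cidec and Cidea, given above, stand in these lists too, and no marker in these lists read 0 on either array.

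Markers of other cell types were not mainly low. The counts below stand beside 6.34% of all measured genes at least 1.5-fold lower and 3.38% higher. Of 6 measured neuron and Schwann cell markers 0 were at least 1.5-fold lower and 2 higher, with a median of 0.41. The neuronal gene Stmn2 had 0.12, with signals of 201 and 218, near the floor. The myelin genes Mbp and Pmp22 had 0.57 and 0.65. Pmp22 and Ncmap were the higher ones, Ncmap 2.81-fold from a signal of 189, near the floor, to 531. The neuronal markers Snap25, Syt1, Nefl and Tubb3 were under the floor on both arrays. Of 10 leukocyte and platelet markers 2 were lower and 1 higher, and 3 more were above the floor on the array labelled null only. The last held for 11 of all 18194 genes with a probe set, when the brighter signal was at least 2 times the floor. The median of the 10 markers was -0.06, with Ptprc, Cd68 and Adgre1 at 0.48, -0.18 and 0.11. The neutrophil genes of this list, named after their values were seen, were higher. Ngp was 6.20-fold higher, and S100a8, S100a9 and Camp were at least 12.9-fold, 11.9-fold and 4.84-fold higher. Of 11 endothelial and smooth muscle markers 1 was lower and 1 higher, with a median of 0.22, with Pecam1 and Cdh5 at 0.22 and -0.15 and Kdr 2.00-fold lower.

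**Figure D3:**
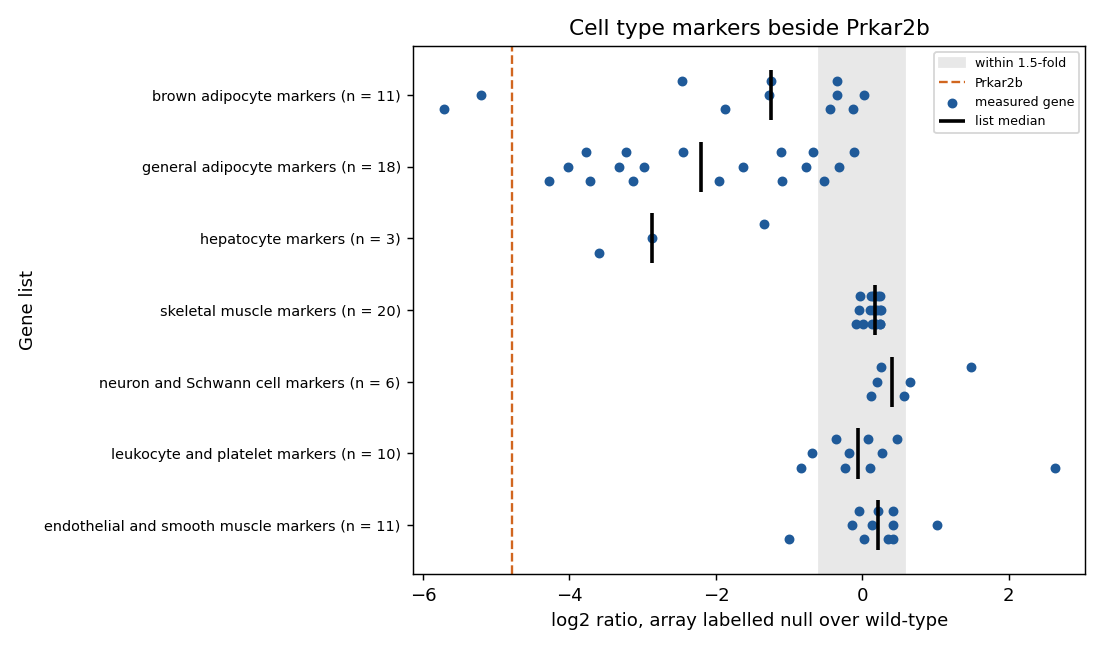
Log2 ratio, array labelled null over that labelled wild-type, of each measured marker gene (points) by cell type, with list medians as bars, a grey band for differences within 1.5-fold and a dashed line at the Prkar2b value of -4.78. Brown adipocyte, general adipocyte and hepatocyte markers have medians of -1.25, -2.20 and -2.87, while the 20 muscle markers lie between -0.09 and 0.26.

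The low value of Prkar2b and the near-even values of the other subunits were recomputed under each processing setting. Prkar2b ranged from -5.07 to -4.47 over 8 settings, and Prkaca from -0.45 to -0.29 over 9. Prkar1b changed sign between settings, from -0.02 to 0.10, and has no direction here. Prkar1a and Prkar2a were above 0 except where probe sets under the floor were included, at -0.02 and -0.33.

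**Figure D4:**
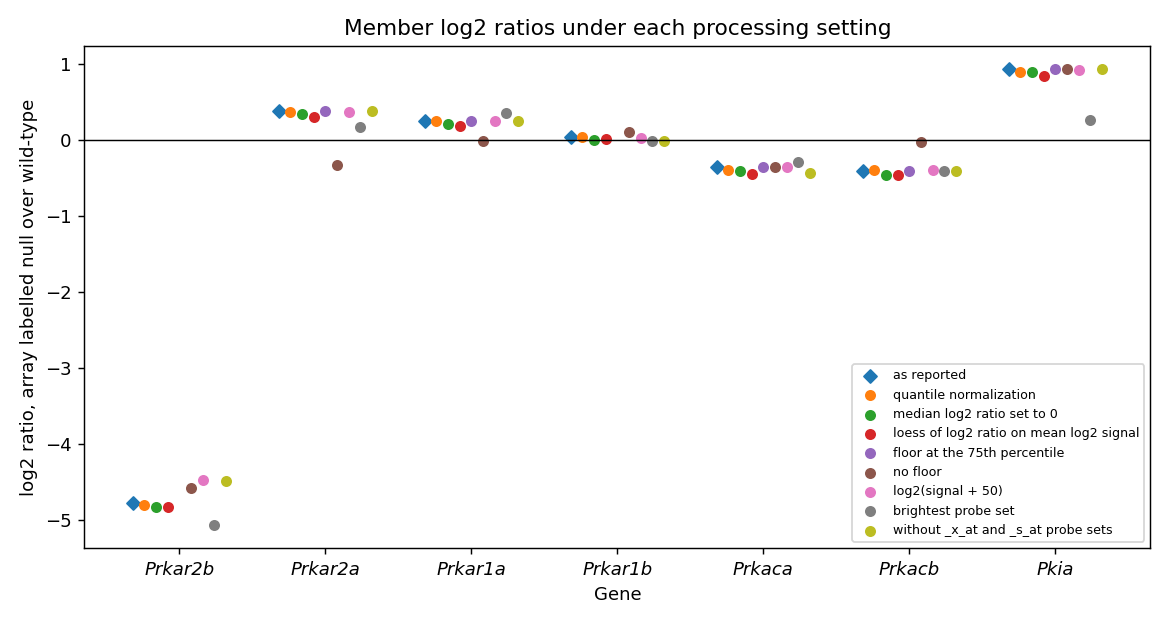
Log2 ratio, array labelled null over that labelled wild-type, of the 7 genes under the reported setting (diamonds) and each alternative (circles). Prkar2b stays between -5.07 and -4.47 and has no point for the floor at the 75th percentile, where it has only a bound, while the other members lie between -0.47 and 0.93.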

How the data were processed

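The values are signal intensities on a linear scale, 1 per probe set, that the authors deposited. They come from MAS5 according to the submitters' processing notes; its version and any genome build are not given in the sources used here. A 2% trimmed mean of 500.003 was found on each array, with a median signal of 112, so the values were used as deposited, and 0 columns of other samples were present. Control probe sets (64) did not enter. Of 45037 other probe sets, 34945 had 1 gene symbol, 932 several and 9160 none in the platform annotation, and only the first entered gene values. The floor was the 60th percentile of signals on both arrays, used because no detection calls were at hand. For each gene the log2 ratios of measured probe sets were averaged, and genes past 1.5-fold were counted. A gene or probe set above the floor on 1 array only was given a bound, brighter signal over floor, for genes where that signal was at least 2 times the floor. No test was run, as 1 array per genotype leaves no residual degrees of freedom.

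Alternatives were setting the median log2 ratio to 0, quantile normalization, loess with a span of 0.3, a floor at the 75th percentile, no floor, log2 of signal plus 50, the brightest probe set, probe sets without _x_at or _s_at suffix, and a 2-fold count. The members and lists were chosen with earlier results of these data known. Named were the members, the 8 measured genes nearest Prkar2b whose brighter array read at least 2 times the floor, and Kdm3a. Up to 4 genes of largest absolute log2 ratio per pathway list and the first 3 detected markers per cell type were named too. Gnas, Adcy9, Creb1, Phka1, Pygm, Pkib and the neuronal genes under the floor were added after their values were seen. So were Ncmap, Car3 and the adipocyte markers within 1.5-fold. Promoter windows came from RefSeq on GRCm38.p6. Scripts ran in Python 3.11.15 with statsmodels 0.14.6, and the gene summary was tested on simulated data.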

Additional observations from a re-analysis of the deposited data

How the results depend on the processing

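No paired analysis was possible because each genotype has 1 array, and no replicate could be left out. A value was taken as moved when it shifted by more than the technical SD of 0.29, and the cause was not tested beyond the construction of each setting. Of 54 member gene values under alternatives 50 stayed within that SD, as did 30 of 42 differences between Prkar2b and another member, and none changed sign among those differences. With log2 of signal plus 50, which compresses low signals, Prkar2b had -4.47 (its probe set 1456475_s_at -4.75), and its differences from Prkar1a, Prkar1b, Prkar2a, Prkaca and Pkia were -4.72, -4.50, -4.83, -4.12 and -5.39. From the brightest probe set Pkia had 0.26, and the differences from Prkar1a, Prkaca and Pkia were -5.42, -4.78 and -5.33. Without _x_at and _s_at probe sets the differences from Prkar1b and Prkaca were -4.47 and -4.06. With no floor Prkar2a had -0.33 and Prkacb -0.035, and the differences from Prkar1a and Prkar2a were -4.56 and -4.25. With the floor at the 75th percentile Prkar2b and Prkar1b had no measured value on both arrays, and Prkar2b was at least 13.9-fold lower. The count of pathway genes at least 1.5-fold lower, 10 as reported, was 6 with that floor, where fewer genes are measured, and 17 with none. The count higher, 2 as reported, was 1 at 2-fold, after loess and with the median set to 0, 4 with no floor and 5 from the brightest probe sets. Over all genes the median log2 ratio moved by less than 0.1 under every setting. The counts over all genes were 615 lower and 328 higher as reported, 332 and 187 with the higher floor, and 3063 and 2255 with none. Of the 943 genes past 1.5-fold, 65.2% were lower, against 73.9% with the median set to 0. Signals near the floor limit how far the Prkar2b difference can be resolved.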
